A study of Homo sapiens with 42 samples.

Results

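The sites described here are stretches of accessible chromatin in MCF10A cells, a non-tumorigenic line of human mammary epithelium, that lie far from the start of any protein-coding gene. ATAC-seq, in which the Tn5 transposase inserts adapters into open DNA, was carried out on 42 libraries, and peaks had been called in each library separately. Peaks from all libraries on chromosomes 1 to 22 and X that overlapped by at least 1 bp were merged, and merged sites listed in at least 2 libraries were kept. A site was taken as far when each of its peak summits was more than 200 kb from every protein-coding transcription start of GENCODE release 44 on hg38. Of 129254 sites, 19209 (14.9%) met this rule. Among the sites kept, the rule used position alone. Width, enrichment and detection beyond the minimum of 2 libraries were therefore free to vary.

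Cells in all groups were held in a medium with horse serum, hydrocortisone and cholera toxin and without insulin, and EGF was present only where it was added. The CTRL group (4 libraries) was harvested at 0 h, after incubation in this medium and before any ligand. All other groups were harvested at 24 h and at 48 h: PBS as the vehicle (3 libraries per time), EGF at 10 ng/ml (4 per time), HGF at 40 ng/ml (3 per time), OSM at 10 ng/ml (3 per time), IFNG at 20 ng/ml together with EGF (3 per time) and TGFB at 10 ng/ml together with EGF (3 per time). EGF, HGF and OSM were therefore compared with PBS, and IFNG+EGF and TGFB+EGF with EGF, within time. The study's methods describe its samples as biological replicates, while the labels give only the letters A to D within a group, and each p-value measures the spread between these libraries.

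Mammalian genes are spaced unevenly, and long intervals without a protein-coding start, often called gene deserts, lie beside many developmental regulators. Distal elements in such intervals can act on a promoter over long distances through looping of the chromatin fiber. The longest intervals without a start also hold the centromeres, whose alpha satellite DNA is made of near-identical tandem repeats, and short reads from such repeats can be placed at many positions. In epithelial cells, distal accessible sites are commonly bound by AP-1, the dimer of FOS and JUN proteins that acts downstream of growth factor signals, while IRF and STAT proteins are the nuclear effectors of interferons and of OSM-type cytokines.

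Far sites were of 2 kinds. For each site, the 31-base words of a window that took in 100 bases on each side of its central summit were counted over chromosomes 1 to 22, X and Y, and a site was called single-copy when its median word occurred once and repeated when the median was above 1. This division was chosen after seeing the data. It left 15114 single-copy and 4095 repeated far sites, so that repeated sites made up 21.3% of far sites, against 5.70% of nearer sites and 6.49% of those at 50 to 200 kb. Words of 1719 far sites (8.95%) had a median of over 1000 copies. The repeated share rose with distance: 5.96% of the 10874 sites at 200 to 500 kb, 13.5% of the 4223 sites at 500 kb to 1 Mb and 70.0% of the 4112 sites beyond 1 Mb. On each of the 23 chromosomes, the start-free interval with the most CENP-B boxes, the motif that centromere protein B recognizes in alpha satellite DNA, was singled out, and these 23 intervals held 99.2% of all such boxes. They contained 3333 far sites, of which 3147 were repeated. Exact words miss diverged copies, so a few sites counted as single-copy can still lie in old repeats.

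The windows of 6 far sites are shown first, on the plus strand of hg38, because the results turn on them: a single-copy site found in every library (nearest gene LMX1A), a pair gained with IFNG (nearest genes ZP4 and CHRM3), one lost with EGF and with OSM (FOXO1), and a pair of satellite-like repeated sites (KCNJ18 and SRGAP2C). Capitals mark matches, on either strand, to any of the 15 motifs searched. Nearest genes are given as landmarks, not as targets.
LMX1A, chr1:165116796-165116996: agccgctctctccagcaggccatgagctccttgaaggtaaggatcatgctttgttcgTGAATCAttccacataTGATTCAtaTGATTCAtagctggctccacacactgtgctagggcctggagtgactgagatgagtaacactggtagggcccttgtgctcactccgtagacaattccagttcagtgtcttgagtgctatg
ZP4, chr1:238469170-238469370: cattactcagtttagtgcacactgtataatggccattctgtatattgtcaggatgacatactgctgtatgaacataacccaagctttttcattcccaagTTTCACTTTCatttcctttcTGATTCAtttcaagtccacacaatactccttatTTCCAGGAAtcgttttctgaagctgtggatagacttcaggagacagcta
CHRM3, chr1:238950869-238951069: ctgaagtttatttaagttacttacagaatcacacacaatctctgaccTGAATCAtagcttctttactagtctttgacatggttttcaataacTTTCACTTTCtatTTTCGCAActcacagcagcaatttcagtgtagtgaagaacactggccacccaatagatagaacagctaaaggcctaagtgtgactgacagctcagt
FOXO1, chr13:40350502-40350702: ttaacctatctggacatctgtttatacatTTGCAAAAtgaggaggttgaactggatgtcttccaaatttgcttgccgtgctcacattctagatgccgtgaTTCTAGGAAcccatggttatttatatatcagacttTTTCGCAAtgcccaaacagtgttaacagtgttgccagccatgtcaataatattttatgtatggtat
KCNJ18, chr17:23190262-23190462: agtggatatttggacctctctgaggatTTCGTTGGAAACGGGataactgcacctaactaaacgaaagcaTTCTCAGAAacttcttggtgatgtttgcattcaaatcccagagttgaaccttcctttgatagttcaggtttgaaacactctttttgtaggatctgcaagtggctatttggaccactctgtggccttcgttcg
SRGAP2C, chr1:124562038-124562238: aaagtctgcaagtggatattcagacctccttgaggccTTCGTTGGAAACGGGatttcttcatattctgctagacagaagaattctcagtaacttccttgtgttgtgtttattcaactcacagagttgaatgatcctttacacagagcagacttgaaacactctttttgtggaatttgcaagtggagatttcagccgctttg
The 3 capital runs at LMX1A are AP-1 words (TGANTCA). The ZP4 and CHRM3 windows each hold an AP-1 word and an IRF word, with a STAT word (TTCNNNGAA) at ZP4 and a C/EBP word (TTGCNNAA) at CHRM3. The FOXO1 window has a pair of C/EBP words and a STAT word. The KCNJ18 and SRGAP2C windows carry the CENP-B box, and the KCNJ18 window also a STAT word.

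Libraries differed widely in yield, from 4217 to 113805 listed peaks, and 8 libraries had fewer than 30000 on chromosomes 1 to 22 and X: PBS 48 h C, IFNG+EGF 24 h B, IFNG+EGF 48 h C, TGFB+EGF 24 h B and C, TGFB+EGF 48 h A and B, and OSM 48 h B. The files give no read counts, so sequencing depth is unknown and no counting interval can be set on a peak. The study's methods state that ATAC-seq samples with a low fraction of reads in peaks failed quality control and were excluded. Its supplement adds that low-quality IFNG+EGF samples were taken out. Those samples were not identified here, and no library was left out of the main results for this reason. As a check of the cell type, 8 of 10 epithelial genes had a promoter peak in at least 21 libraries (KRT5 in 31, KRT18 in 36, EGFR in 35, EPCAM in 26). The exceptions were KRT14, with a promoter peak in 10 libraries, and TP63, in 0. Of 10 genes of other cell types, 0 reached 21 libraries, and COL1A2, in 7, was the only one of them with any promoter peak.

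Far sites took a similar share of the peak list in most groups, but their make-up differed. The far share was 10.99% ± 0.313 (SD, n = 4) in CTRL. It was 11.1% ± 0.637 at 24 h and 12.4% ± 3.36 at 48 h with PBS (n = 3 each), 10.9% ± 0.300 and 10.5% ± 0.158 with HGF (n = 3 each), and 10.95% ± 1.07 and 10.1% ± 0.202 with EGF (n = 4 each). OSM gave 11.9% ± 0.727 at 24 h and 14.97% ± 5.97 at 48 h, and IFNG+EGF gave 11.02% ± 1.17 and 16.3% ± 11.9 (n = 3 each). TGFB+EGF had the highest means, 24.0% ± 11.2 at 24 h and 22.9% ± 15.4 at 48 h (n = 3 each). In the 34 libraries with 30000 peaks or more the far share kept to 9.05% to 12.7%, and in the 8 libraries below this number it ran from 12.3% to 40.4%.

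**Figure D1:**
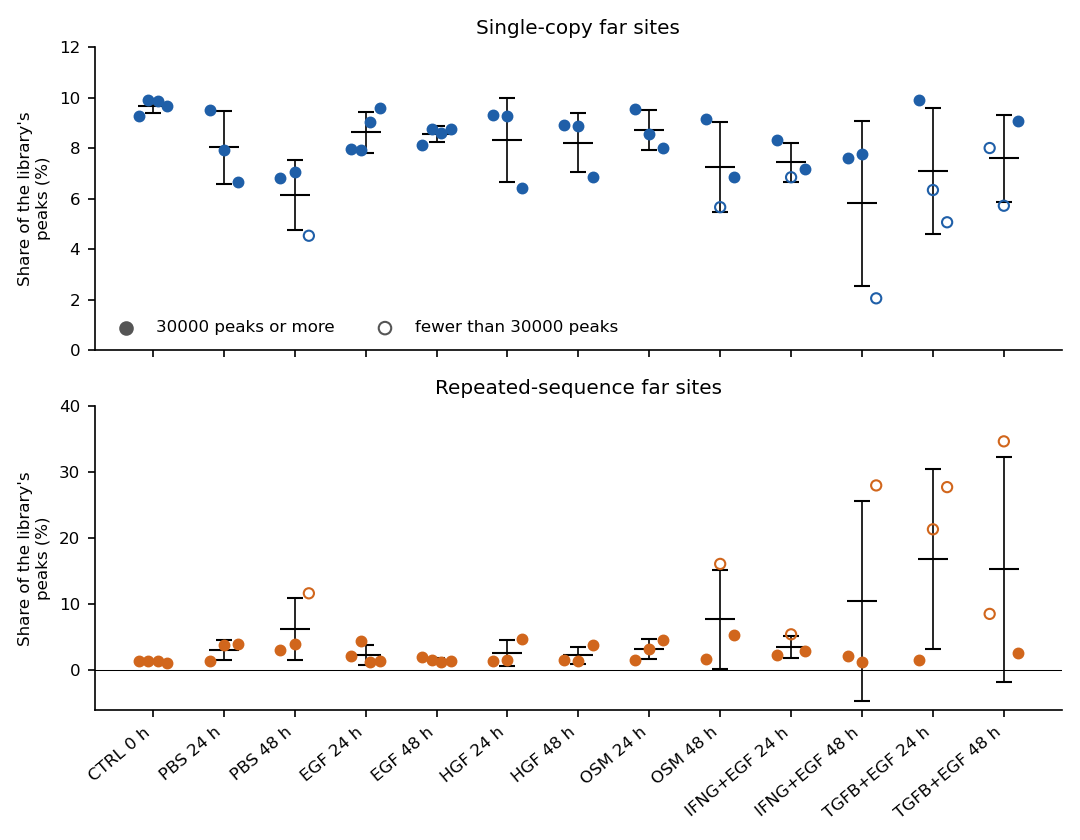
Share of each library's peaks that fell in single-copy far sites and in repeated far sites, in percent, by treatment and time. Each point is a library, open points are the 8 libraries with fewer than 30000 peaks, and bars give the mean ± SD. The open points lie high for repeated sites (up to 34.7%) and low for single-copy sites (down to 2.06%).

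The difference between TGFB+EGF and EGF was the only one of 11 contrasts of the far share to pass. The 6 TGFB+EGF libraries had 11.5% and 11.7% in the pair with 30000 peaks or more (24 h A and 48 h C) and 16.6%, 27.7%, 32.8% and 40.4% in the 4 with fewer. The 8 EGF libraries ran from 9.83% to 12.5%, with a mean of 10.5%. TGFB+EGF lay 12.9 points above EGF and was above the EGF mean in 6 of 6 libraries (exact permutation test within time, two-sided, p = 0.00163, adjusted p = 0.0180 over the 11 contrasts). Without the 8 libraries of low yield the difference was 1.05 points. This left only 24 h A and 48 h C of TGFB+EGF, too few for the permutation test to decide. With single-copy sites alone the difference was -1.24 points (adjusted p = 0.159, exact permutation test). Repeated sites held 1.95% ± 1.09 of peaks with EGF (n = 8) and 16.1% ± 13.9 with TGFB+EGF (n = 6), a difference that did not pass after adjustment (adjusted p = 0.0718, exact permutation test). The far-share difference also did not pass with the limit at 500 kb (13.1 points, adjusted p = 0.054) or with the starts of all genes (11.1 points, adjusted p = 0.063), each by the exact permutation test. With the replicate letter as a block it was 12.9 points (adjusted p = 0.344, exact sign-flip test over 6 same-letter pairs). That was the smallest p that 6 pairs can give. Over 11 contrasts it cannot pass on its own, so the block cannot decide. The part of yield in this result was not tested.

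The other far-share contrasts did not pass. Against CTRL the differences were 12.5 points for TGFB+EGF (exact permutation test, p = 0.0381, adjusted p = 0.210), 2.69 for IFNG+EGF, 2.45 for OSM, 0.770 for PBS, -0.266 for HGF and -0.447 for EGF, with adjusted p-values of 0.516 to 0.881 for the last 5. With 6 libraries against 4 the smallest p the test can give is 0.00952. Against the matched medium they were 3.14 points for IFNG+EGF, 1.68 for OSM, -1.04 for HGF and -1.22 for EGF (adjusted p of 0.516 to 0.519). Effects at 48 h and at 24 h did not differ detectably for any ligand (lowest adjusted p = 0.913, exact permutation test). CTRL enters 6 of the 11 contrasts, and EGF and PBS 4 each, so they are not independent.

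Single-copy far sites, taken alone, made up 9.67% ± 0.279 of peaks in CTRL (n = 4) and less in every other group, down to 5.81% ± 3.25 with IFNG+EGF at 48 h (n = 3), although no treatment differed from CTRL after adjustment (lowest adjusted p = 0.0516, exact permutation test). With both times together, IFNG+EGF libraries had 6.63% ± 2.29 (n = 6) and EGF libraries 8.59% ± 0.567 (n = 8), a difference of -1.96 points with 6 of 6 libraries below the EGF mean (exact permutation test, p = 0.00327, adjusted p = 0.0359). Without IFNG+EGF 48 h C the difference was -1.02 points (adjusted p = 0.0419, exact permutation test), and without the 8 low-yield libraries it was -0.875 points and did not pass (adjusted p = 0.0796, exact permutation test). Leaving out 1 of the 14 libraries in turn ended the pass in 9 runs. Sites at 50 to 200 kb moved the same way in this contrast, by -3.30 points (adjusted p = 0.0224, exact permutation test), or by -1.38 without IFNG+EGF 48 h C, and the pass ended in 6 of 14 runs and without the low-yield libraries (-1.08 points, adjusted p = 0.0728, exact permutation test). The 4000 strongest peaks of each library give lists of like length, except in TGFB+EGF 48 h B, which has fewer peaks than that. On these lists the IFNG+EGF difference was -0.999 points and did not pass (adjusted p = 0.145, exact permutation test). On the same lists single-copy far sites held 6.05% ± 1.10 with EGF (n = 8) and 3.81% ± 1.67 with PBS (n = 6), and all 8 EGF libraries lay above the PBS mean (adjusted p = 0.0180, exact permutation test, passed in each of 14 runs without 1 library). OSM gave 7.02% ± 0.798 on this measure (n = 6), above the PBS mean in 6 of 6 libraries (adjusted p = 0.0275, exact permutation test, not passed in 5 of 12 runs without 1 library), and HGF gave 5.63% ± 0.910, which did not pass (adjusted p = 0.138, exact permutation test). Without the low-yield libraries EGF still passed (adjusted p = 0.0419, exact permutation test) and OSM did not (adjusted p = 0.0917, exact permutation test). Sets of single-copy sites were divided off, and these repeats without libraries added, after seeing the data.

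The share of far sites moved with the number of peaks, and it did so in opposite directions for the kinds of site. Over 42 libraries the far share fell with log10 peak number (Pearson r = -0.895, permutation p = 1e-05, Spearman rho = -0.544, permutation p = 0.00023). For repeated sites r was -0.940 (rho = -0.932), and for single-copy sites it was 0.858 (rho = 0.895), each with permutation p = 1e-05, the smallest that 100000 permutations can give. Adjusted over these 3 relations, the Pearson p-values were 1e-05 and the Spearman p-values 0.00023, 1.5e-05 and 1.5e-05. Without the 2 libraries farthest from the median yield, r was -0.856, -0.920 and 0.873 for all, repeated and single-copy far sites. After removal of group means r was -0.894, -0.937 and 0.955. Within the 34 libraries of higher yield r was -0.357 for all far sites, -0.926 for repeated and 0.847 for single-copy sites, so the pooled far-share relation rested largely on the 8 low-yield libraries. Peak number is also the denominator of the share, which ties these measures together.

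**Figure D2:**
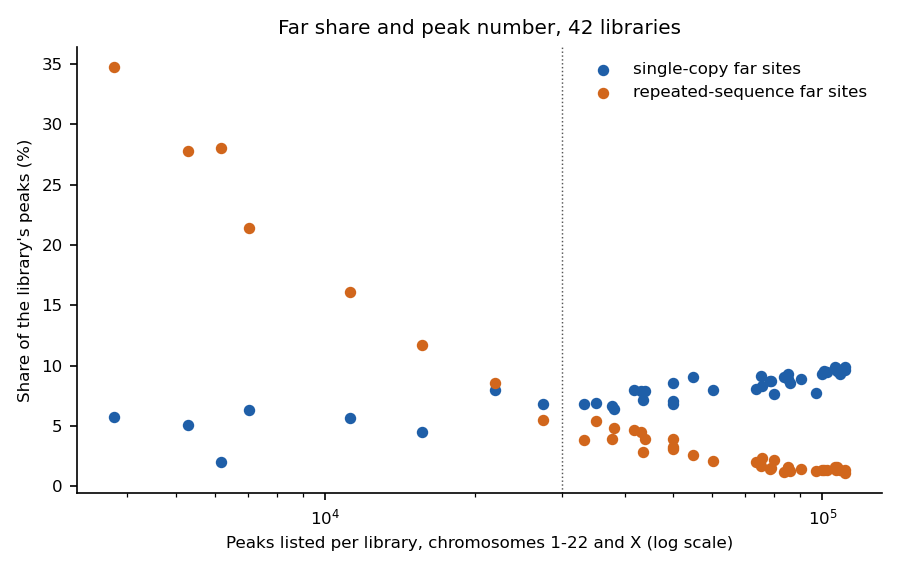
Share of peaks in single-copy and in repeated far sites, in percent, against the number of peaks of each of the 42 libraries on a log axis. Repeated sites fall with yield (r = -0.940) and single-copy sites rise (r = 0.858).

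Counts of sites show the same contrast without a denominator. Repeated far sites were listed at 1089 to 1617 positions in the 8 low-yield libraries and at 831 to 1664 in the other 34. Single-copy far sites were listed at 108 to 1749 positions in the low-yield libraries and at 2106 to 9935 in the others. IFNG+EGF 48 h C, with 6156 peaks, listed 1518 repeated and 108 single-copy far sites, while CTRL D, with 111262 peaks, listed 1016 and 9723.

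Detection by treatment and time followed yield for single-copy sites. CTRL libraries listed 63.4% ± 2.40 of the single-copy far sites (n = 4). EGF libraries listed 38.5% ± 16.8 at 24 h and 41.02% ± 3.96 at 48 h (n = 4 each), and HGF libraries 39.4% ± 21.5 and 36.1% ± 19.2 (n = 3 each). The values were 31.8% ± 23.2 and 15.5% ± 9.63 for PBS, 35.4% ± 21.5 and 20.0% ± 19.6 for OSM, 22.8% ± 13.6 and 27.3% ± 23.4 for IFNG+EGF and 22.1% ± 34.5 and 13.9% ± 14.5 for TGFB+EGF (n = 3 each). The spread within most groups was as large as the gaps between them. Repeated sites varied little, with group means of 25.0% to 36.9%.

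Far sites were found in fewer libraries than nearer ones. The median far site was listed in 9 libraries, against 12 for sites at 50 to 200 kb, 32 for sites within 1 kb of a start and 14 for all sites. Single-copy far sites had a median of 10 libraries and repeated ones of 8, and their tails differed. Of single-copy far sites, 13.8% were listed in 2 libraries and 16 sites in all 42. Of repeated far sites, 18.7% were listed in 2 libraries and 145 sites in all 42.

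**Figure D3:**
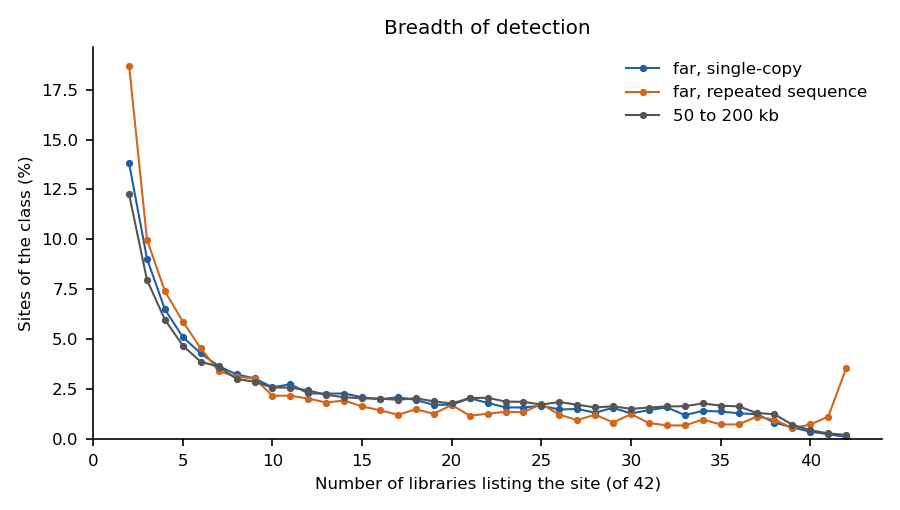
Percent of single-copy far sites, repeated far sites and sites at 50 to 200 kb listed in each number of libraries, from 2 to 42. All 3 classes are highest at 2 libraries (13.8%, 18.7% and 12.3%), and repeated sites turn up again at 42 (3.54%, against 0.106% of single-copy sites).

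The 10 far sites listed in all 42 libraries with the highest fold enrichment were all repeated and all in CENP-B intervals, 9 of them between KCNJ18 and WSB1 on chromosome 17 and 1 near EMB on chromosome 5. Fold enrichment is the read pileup at a summit over the local background, as the peak caller writes it. The first of these, at chr17:25920024-25920397, had a median fold enrichment of 43.2 over the libraries, with a range of 23.1 to 54.1. The site at chr17:23190158-23190724, whose window is shown above, had 33.4, with a highest value of 42.7.

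Among single-copy sites, 16 were in all 42 libraries (chosen after their values were seen). Of these, DCUN1D4, CWH43 (2 sites) and SHCBP1 lay in CENP-B intervals, and the others were nearest to LMX1A, BOD1L1, POU5F1B, CADM2, ZHX2, ACKR3, KIF4B, MYC, NR5A2, PLXNA2, TBL1XR1 and TPTE. The LMX1A site, at chr1:165116373-165117257 and 238749 bp from the nearest start, had the 3 AP-1 words shown above. Its fold enrichment ran from 8.12 to 22.7 over all libraries, with medians of 16.8 in CTRL, 13.3 with PBS, 16.1 with EGF, 16.9 with HGF, 15.4 with OSM, 14.3 with IFNG+EGF and 11.5 with TGFB+EGF. These ranges overlapped between all treatments. The CADM2 site, at chr3:83934221-83935067, was 1024172 bp from the nearest start and ran from 5.04 to 19.7. CADM2 encodes a neuronal adhesion molecule.

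The far sites most distant from a start were in repeated or unusual sequence. The 5 farthest that were listed in at least 21 libraries lay on chromosome 21 between positions 5021949 and 5155186, 5366636 to 5498549 bp from TPTE, and their words had a median of 2 genome copies. Outside CENP-B intervals, the farthest single-copy sites at the same breadth were 4149184 bp from TPTE (chromosome 21), 2494471 bp from ARAP2 and 2367442 bp from PCDH7 (chromosome 4), and 2102861 and 2085513 bp from TENM3 (chromosome 4). The ARAP2 site, at chr4:33715918-33716513, was listed in 34 libraries. PCDH7 is a protocadherin and TENM3 is a teneurin of neuronal contacts.

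The 200 kb limit cut through a continuum. The closest far sites were 200005 bp (near CFAP299, listed in 10 libraries, fold enrichment 7.74), 200011 bp (ATP10B, 2 libraries) and 200027 bp (DLGAP1, 2 libraries) from a start. The first sites on the other side were 199978 bp (LRMDA, 22 libraries, fold enrichment 6.38), 199963 bp (FGF14, 21 libraries) and 199959 bp (ZNG1F, 4 libraries) away.

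Peaks in far sites were slightly narrower than those at 50 to 200 kb. Within each library the median width of far peaks was compared with that of peaks at 50 to 200 kb. The mean difference was -7.14 bp ± 14.2 (SD, n = 42 libraries), below 0 in 34 (sign-flip permutation test, two-sided, p = 0.00276). For single-copy sites it was -7.05 bp ± 10.2 (permutation p = 7e-05), and without the 8 low-yield libraries it was -13.0 bp ± 6.26 (33 of 34 below 0, permutation p = 1e-05). Restricted to sites listed in at least 21 libraries, it was -0.298 bp (permutation p = 0.947). The median width of single-copy far peaks ran from 197 to 377 bp between libraries, so the gap between classes was small beside the gap between libraries. By group it was 343 bp ± 19.8 in CTRL (n = 4), 316 ± 59.7 and 338 ± 15.8 with EGF at 24 h and 48 h (n = 4 each), 319 ± 44.2 and 313 ± 46.8 with HGF, 287 ± 43.8 and 239 ± 24.1 with PBS, 281 ± 22.7 and 271 ± 58.8 with OSM, 260 ± 19.0 and 324 ± 29.1 with IFNG+EGF, and 249 ± 66.7 and 237 ± 45.8 with TGFB+EGF (n = 3 each).

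Fold enrichment of single-copy far peaks was a little above that of single-copy peaks at 50 to 200 kb. The within-library difference in median log2 fold enrichment was 0.05 ± 0.03 (SD), above 0 in 42 of 42 libraries (sign-flip permutation test, two-sided, p = 1e-05, the smallest possible). For all far sites it was 0.03 ± 0.08 (above 0 in 22 and below in 14, permutation p = 0.0163), and without the 8 low-yield libraries it was -0.000202 (permutation p = 0.970). Median fold enrichment of single-copy far peaks was 8.18 ± 0.193 in CTRL (n = 4), 7.16 ± 0.821 and 7.30 ± 0.495 with EGF (n = 4 each), 7.11 ± 1.29 and 7.22 ± 0.871 with HGF, 6.98 ± 1.14 and 6.72 ± 0.804 with PBS, 6.63 ± 1.00 and 6.34 ± 1.26 with OSM, 6.17 ± 0.422 and 6.59 ± 1.44 with IFNG+EGF, and 6.09 ± 1.32 and 5.71 ± 0.662 with TGFB+EGF at 24 h and 48 h (n = 3 each). It fell from libraries with many peaks to those with few, as at nearer sites: in the 8 low-yield libraries it was 5.04 to 5.82 and in the others 5.64 to 8.41. Repeated far peaks kept to 5.29 to 6.35 in all 42 libraries.

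**Figure D4:**
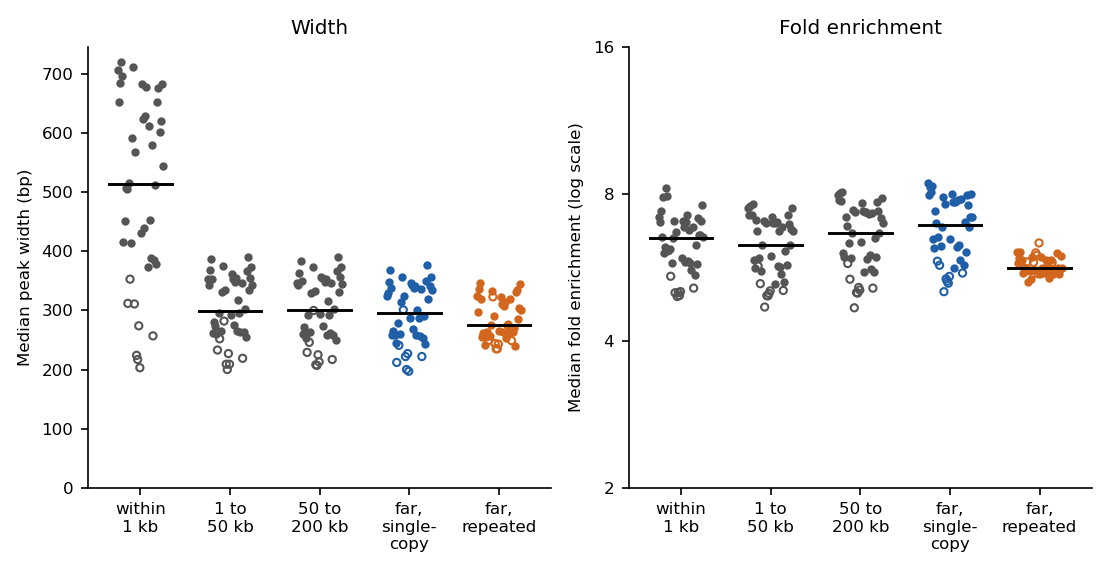
Median peak width in bp and median fold enrichment (log axis) of peaks in single-copy far sites, repeated far sites and nearer classes by distance. Points are the 42 libraries, open for the 8 with fewer than 30000 peaks, and bars the median over libraries. Single-copy far sites (197 to 377 bp) overlap with sites at 50 to 200 kb (207 to 391 bp), and sites within 1 kb of a start reach 720 bp.

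Single-copy far sites lay nearer to sites at 50 to 200 kb than to promoters in their shares of AP-1, C/EBP, RUNX and SP/KLF words, but not of CTCF words. An AP-1 word (TGANTCA, either strand) was in 50.3% of single-copy far windows, 44.5% of windows at 50 to 200 kb, 9.88% of windows within 1 kb of a start and 37.1% of all windows. The C/EBP word TTGCNNAA was in 19.3%, 16.4%, 5.69% and 14.3% of the same classes, and the RUNX word TGTGGT in 18.8%, 18.2%, 7.74% and 16.4%. The SP/KLF word GGGCGG, which is typical of CpG-rich promoters, was in 2.33% of single-copy far windows, 4.84% of windows at 50 to 200 kb and 52.2% of promoter windows. CTCF words were in 2.59% of single-copy far windows, 4.09% of windows at 50 to 200 kb, 3.11% of promoter windows and 4.52% of all windows. Breadth and AP-1 went together: the word was in 57.8% of the 109 single-copy far sites listed in at least 40 libraries and in 35.1% of the 2087 listed in 2. Median GC content was 42.8%, against 45.3% at 50 to 200 kb and 65.7% within 1 kb of a start.

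Repeated far sites had another makeup. The CENP-B box was in 30.5% of their windows and in 0 of the single-copy far windows. STAT words were in 42.1% and IRF words in 19.8% of repeated windows, against 7.66% and 4.31% of all windows. The KCNJ18 window shown above carries such a STAT word. A match is a description of the letters and shows no bound factor. AP-1 words were in 9.26% of repeated windows.

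Far sites were seldom inside coding genes. A protein-coding gene body covered 12.1% of far sites (39.5% at 50 to 200 kb) and an lncRNA gene 28.6% (23.3%), and 2.92% were within 1 kb of an lncRNA start (4.06%). The 2330 far sites inside a coding gene lay in 342 genes, most often FHIT (35), RUNX1 (32), CDH13 (30), WWOX (30) and CNTNAP5 (29), which are long genes. RUNX1 encodes a transcription factor whose word is among those searched, and FHIT and WWOX span common fragile sites.

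Single-copy far sites were spread over 1078 intervals between neighboring protein-coding starts. The fullest were MAT2B to TENM2 on chromosome 5 (100 sites over 3.46 Mb), AGA to TENM3 on chromosome 4 (96), CELF4 to PIK3C3 on chromosome 18 (95), MYC to GSDMC on chromosome 8 (95 over 2.04 Mb) and B3GALT2 to KCNT2 on chromosome 1 (87). The nearest genes with most single-copy far sites were PCDH7 (68), PIK3C3 (64), KHDRBS3 (61), TENM3 (61) and MYC (58). With repeated sites included they were SRGAP2C (557), EMB (364), ZNF254 (358), TPTE and ZNF33B. Far sites made up 28.5% of the sites of chromosome 21 and 26.9% of chromosome 13, which is gene-poor, and 4.41% of chromosome 17. Single-copy far sites alone made up 11.4%, 24.3% and 3.50% of these, and 11.7% of all sites. On chromosome 21, 294 of the 490 far sites were repeated.

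A list of 30 genes chosen as neighbors of gene deserts, most of them transcription factors of epithelial or developmental roles, was followed on its own. Whether each of them borders a desert was not tested. Of these, 24 were the nearest gene to at least 1 single-copy far site, and 6 had none (IGFBP5, PTHLH, FOXA1, ZNF217, ID1 and EPHA2). They accounted for 539 sites (3.57% of single-copy far sites). MYC, the growth-promoting transcription factor, had 58, of which 16 were in at least 21 libraries. SOX9, a regulator of progenitor cells in many epithelia, had 51 (23 in at least 21 libraries), GATA3, a luminal regulator, 48 (9), TFAP2A 37 (11), TRPS1 33 (14), KLF4 32 (11), NR2F1 32 (7), KLF5 29 (11), BMP2 26 (12), SOX4 24 (9) and TBX3 24 (9). Breadth thus varied across the list, from a median of 2.5 libraries for the FOXC1 sites to 24 for the ID4 sites.

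To ask which far sites responded to a ligand, detection (1 if a library lists the site, 0 if not) was reduced by the share of equally widespread sites that the library lists, as an adjustment for yield, and was fitted with limma over all 129254 sites. For repeated far sites the adjustment left a shift: their median difference was 0.126 for TGFB+EGF against EGF, 0.251 for TGFB+EGF against CTRL and 0.265 for PBS against CTRL, while the medians of single-copy far sites were 0.004, -0.002 and -0.028. Calls of gain or loss needed both a Benjamini-Hochberg adjusted p under 0.01 and a change of 0.5 or more on this scale. On simulated data with 100 gains and 100 losses made per contrast, recovery differed by direction. The fit found 49 gains and 100 losses for EGF against PBS, 38 and 99 for HGF and 62 and 75 for OSM. It found 99 and 45 for IFNG+EGF against EGF and 60 and 29 for TGFB+EGF, so gains and losses are not counted on equal terms. Among simulated sites left unchanged, the fit called 5 for EGF, 4 for HGF, 10 for OSM, 8 for IFNG+EGF and 1 for TGFB+EGF. In the data, 1 site of all 129254 was called for HGF and 3 for TGFB+EGF. Far sites were called about as often as sites in general. With IFNG+EGF against EGF, 199 far sites (1.04%) were gained and 65 (0.338%) lost, against 1.13% and 0.231% of all sites. With OSM against PBS, 61 (0.318%) were gained and 30 (0.156%) lost, against 0.309% and 0.188%. With EGF against PBS, 5 (0.0260%) were gained and 48 (0.250%) lost, against 0.0333% and 0.196%. With TGFB+EGF against EGF, 2 (0.0104%) were gained and 0 lost, against 0.00232% and 0%. With HGF against PBS, 0 far sites were called by limma, against 0% gained and 0.000774% lost of all sites, although 1489 far sites had an unadjusted p below 0.05. Without the yield adjustment 1 far site was called for HGF. The single-copy far sites supplied 187 of the IFNG+EGF gains and all 65 losses, 56 and 29 of the OSM calls, and 5 and 46 of the EGF calls. Called either way were 1.67% of single-copy far sites for IFNG+EGF (1.36% of all sites), 0.562% for OSM (0.497%) and 0.337% for EGF (0.229%). Of repeated far sites, 0.293%, 0.147% and 0.0488% were called in these contrasts.

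These counts depended on single libraries. The OSM calls (91 in all) ran from 10 without OSM 48 h C to 265 without PBS 48 h C, and moved by more than 1.5 times in 31 of 42 such refits. The EGF calls (53) ran from 11 without PBS 48 h B to 262 without PBS 48 h C, and also moved by over 1.5 times without PBS 24 h A (142), PBS 24 h B (12), PBS 48 h A (20), EGF 24 h C (34) or EGF 48 h B (28). The IFNG+EGF calls (264) ran from 163 without IFNG+EGF 48 h B to 664 without IFNG+EGF 48 h C, with 170 without 48 h A and 450 without 24 h B. The HGF calls (0) reached 17 without PBS 48 h C, 12 without PBS 24 h A and 11 without PBS 48 h A, and 2 or 3 without PBS 24 h C, PBS 48 h B, IFNG+EGF 24 h A or HGF 48 h C. The TGFB+EGF calls (2) reached 28 without TGFB+EGF 48 h B and 7 without TGFB+EGF 24 h A. Without the yield adjustment the balance changed, to 45 gained and 6 lost with EGF, 8 and 3 with OSM, 140 and 125 with IFNG+EGF, and 26 and 306 with TGFB+EGF.

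Of the contrasts with matched medium, IFNG+EGF against EGF had the most far calls. IFNG is the type II interferon. Of the 199 gained with IFNG+EGF, 163 were listed in no EGF library and 140 in no CTRL library. A total of 113 were in no library of any other group, so that they entered the set of sites through IFNG+EGF libraries alone, and their count is a description. The gained sites lay nearest to 166 genes, with at most 4 at one gene (MAT2B), at a median distance of 383758 bp, and 27 were inside a coding gene. An IRF word was in 88 of the 187 single-copy gained windows (47.1%), against 4.31% of all windows, and a STAT word in 17.1%, against 7.66%. Of the 65 lost sites, 61 were in all 4 CTRL libraries and 65 in no IFNG+EGF library, and 1 (1.54%) held an IRF word.

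At the lowest adjusted p, 26 of the gained sites were tied, each listed in 5 of 6 IFNG+EGF libraries and in 0 of the other 36 libraries. The library that lacked all of them was IFNG+EGF 48 h C, with 6156 peaks. The first 5 in genome order are given. At ZP4 (chr1:238468996-238469725, 578327 bp from the start of this egg-coat gene) the fold enrichment was 11.5, 6.87 and 7.23 in the 24 h libraries and 13.3 and 12.9 in 48 h A and B. At CHRM3 (chr1:238950791-238951233, 435588 bp from the start of this muscarinic receptor gene) it was 10.4, 3.78 and 6.65 at 24 h and 11.7 and 13.5 at 48 h. These neighbors in the same desert both hold an IRF word in the windows shown above. At FGGY (chr1:59046792-59047157) the values were 5.37, 4.28 and 3.68, then 6.44 and 6.28. At AMY1C (chr1:104467448-104468076) they were 6.72, 4.76 and 6.47, then 7.59 and 15.4. At BCL11A (chr2:59502978-59503267), which also holds an IRF word, they were 10.8, 5.14 and 4.48, then 11.2 and 10.7. Since these 5 entered the set through IFNG+EGF libraries alone, their values are given without a test.

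The leading losses with IFNG+EGF were listed in all 4 CTRL libraries and in 6 to 8 of the 8 EGF libraries, but, except for CENPC, in few PBS libraries. At SLC39A10 (chr2:195051250-195051862, near a zinc importer gene) the fold enrichment was 10.4 to 13.5 in the 4 CTRL libraries and 4.68 to 11.5 in the 8 EGF libraries, and 1 of 6 PBS, 1 of 6 OSM, 1 of 6 TGFB+EGF and 0 of 6 IFNG+EGF libraries listed the site (difference -0.707, SE 0.115, limma adjusted p = 0.000252). At CENPC (chr4:66741038-66741717, near a kinetochore gene) it was 12.7 to 21.3 in CTRL and 8.49 to 16.2 in 8 of 8 EGF libraries. That site was in 32 of 42 libraries, among them 6 of 6 PBS, 6 of 6 HGF, 5 of 6 OSM and 3 of 6 TGFB+EGF libraries, and in 0 of 6 with IFNG+EGF (difference -0.716, SE 0.134, limma adjusted p = 0.00103). ADRA1D (chr20:4451451-4452071) and SGCD (chr5:156120846-156121654, inside that muscle sarcoglycan gene) were in 8 of 8 EGF and 0 of 6 IFNG+EGF libraries, and each in 1 of 6 PBS and 1 of 6 TGFB+EGF libraries, with 3 of 6 and 2 of 6 OSM libraries. KCNA4 (chr11:29129848-29130187), near a potassium channel gene, was in 6 of 8 EGF, 1 of 6 OSM and 0 of 6 PBS, TGFB+EGF and IFNG+EGF libraries. The ADRA1D, KCNA4 and SGCD calls were lost without IFNG+EGF 48 h B, and that of SGCD also without IFNG+EGF 24 h A.

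OSM is a cytokine of the IL-6 family that signals through STAT3. Of the 61 far sites gained with OSM, 4 were listed in OSM libraries alone and are described without a test. The PIK3C3 site, named for the nearest gene, which encodes a lipid kinase, had a fold enrichment of 15.5, 9.85 and 6.51 in the 24 h libraries and 13.1, 4.24 and 9.20 in the 48 h libraries. It was listed in 6 of 6 OSM libraries, including the low-yield 48 h B, and in 0 of the other 36. The KYNU site (chr2:142642596-142643186, near the kynureninase gene) had 11.03, 6.27 and 4.19 at 24 h and 10.3 and 5.69 in 48 h A and C, and was in no other library. Its window holds AP-1, C/EBP, STAT and TEAD words. The TNS1 site (chr2:217438220-217438457, 4094 bp from the lncRNA DIRC3) and the PLS3 site (chrX:115843462-115843740) were each in 4 OSM libraries and nowhere else. The PLS3 window is repeated, with a median of 19.5 copies.

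Most far sites gained with OSM were also listed in CTRL libraries. Each CTRL library listed 60.1% to 65.7% of all single-copy far sites, and each PBS library 4.41% to 58.4%. The share of equally widespread far sites that all 4 CTRL libraries list was not computed, so the counts are a description. Of the 61 gained sites, 53 were in all 4 CTRL libraries and 8 in none, and 21 were in no PBS library. The PKHD1 site (chr6:51644354-51644956, inside this ciliary gene) is such a case: it was in 4 of 4 CTRL, 5 of 6 OSM and 0 of 6 PBS libraries, and it was not called without the yield adjustment. Of the 30 lost sites, 25 were in all 4 CTRL libraries. A RUNX word was in 35.7% and a C/EBP word in 33.9% of the 56 single-copy gained windows, and a C/EBP word in 34.5% of the 29 lost ones, against 18.8% and 19.3% of all single-copy far windows. A STAT word was in 16.1% of the single-copy gained and 10.3% of the lost windows, against 7.62% of all single-copy far windows. For the AP-1 word these shares were 48.2%, 24.1% and 50.3%. MYC was the nearest gene to 3 of the gained sites, the most of any gene.

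The FOXO1 and ETAA1 sites were lost with OSM and with EGF. The FOXO1 site (chr13:40350251-40350854) lay 315888 bp from the start of FOXO1, a transcription factor held in check by growth factor signals, and 118 bp from the start of the lncRNA LINC00598. Its fold enrichment with PBS was 6.20, 3.60 and 4.77 at 24 h and 7.22, 7.51 and 4.79 at 48 h, and in CTRL 3.36, 3.61, 5.41 and 6.75. It was listed in 6 of 6 PBS, 4 of 4 CTRL and 4 of 6 HGF libraries, in 1 of 8 EGF libraries (48 h C, 5.33) and in 0 of 18 libraries with OSM, IFNG+EGF or TGFB+EGF. The difference from PBS was -1.14 for EGF (SE 0.147, limma adjusted p = 0.000164) and -1.05 for OSM (SE 0.157, limma adjusted p = 0.00082). The ETAA1 site (chr2:66957036-66957547), near the gene for an activator of the ATR kinase, had the same counts, with a fold enrichment of 5.08 to 13.9 with PBS. Both contrasts use the same PBS libraries. The other OSM losses named by the rule were ACVR2A (chr2:147025404-147026112), MAT2B (chr5:164191238-164191771) and BCKDHB (chr6:80622548-80623257), in 6, 5 and 6 of 6 PBS libraries and in 1, 0 and 1 of 6 OSM libraries. ACVR2A is an activin receptor, and its site was in 4 of 4 CTRL and 5 of 8 EGF libraries. The ACVR2A call was lost without PBS 24 h B, PBS 24 h C or OSM 48 h C, and those of MAT2B and BCKDHB without any of 5 and 6 libraries, OSM 48 h A and C among them. Without the yield adjustment none of these 3 was called.

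Most far sites called for EGF against PBS were losses, which the fit found more readily on simulated data (100 of 100 losses and 49 of 100 gains). Of the 48 lost sites, 29 were in all 4 CTRL libraries and 16 were in no EGF library. The HS6ST3 site (chr13:96524520-96525050, inside a heparan sulfate sulfotransferase gene) was in 5 of 6 PBS and 0 of 8 EGF libraries, with a fold enrichment of 6.82 to 17.0 with PBS, and it was also in 6 of 6 HGF and 4 of 4 CTRL libraries (difference -1.25, SE 0.176, limma adjusted p = 0.000404). The TMEM132C site (chr12:127197464-127198007) was in 5 of 6 PBS and 0 of 8 EGF libraries, and the RAB11FIP2 site (chr10:117818643-117819155, near the gene of a RAB11 effector) in 5 and 1. Without the yield adjustment none of these 3 was called. A C/EBP word was in 32.6% of the 46 single-copy lost windows, against 19.3% of all single-copy far windows. The share was similar for OSM against PBS, in gained (33.9%) and lost (34.5%) windows alike. An AP-1 word was in 39.1% of the windows lost with EGF, against 50.3% of all single-copy far windows.

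The 5 far sites gained with EGF were, except for LRRC3B, present before treatment and missing with PBS. SHISA9 (chr16:13307153-13308179) was in 8 of 8 EGF, 4 of 4 CTRL and 0 of 6 PBS libraries, with a fold enrichment of 7.50 to 15.4 with EGF and 9.87 to 12.9 in CTRL (difference 0.689, SE 0.124, limma adjusted p = 0.00452). PKHD1 and KHDRBS3 (chr8:136070953-136071646) had the same counts, and KCNA4 was in 6 of 8 EGF, 4 of 4 CTRL and 0 of 6 PBS libraries. SHISA9, PKHD1 and KHDRBS3 were each also in 5 of 6 HGF, OSM and IFNG+EGF libraries. They were in 3, 2 and 3 of 6 TGFB+EGF libraries. KCNA4 was in 1 of 6 OSM and in 0 of 6 HGF, IFNG+EGF and TGFB+EGF libraries. LRRC3B (chr3:26237009-26237555) was in 5 EGF libraries (24 h D at 6.07 and 48 h A to D at 3.71 to 4.58) and in 1 HGF library (4.14), and its call was lost in 36 of 42 refits that left out a library. The calls of SHISA9, PKHD1 and KHDRBS3 were each lost without PBS 48 h A, PBS 48 h B or EGF 24 h B. The KCNA4 call was lost in 20 of 42 refits, and those of KCNA4 and LRRC3B without the 8 low-yield libraries. With the replicate letter as a block, KHDRBS3, KCNA4 and LRRC3B were not called. All 5 were lost with the sequencing lane, which the file names give, as a term.

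TGFB+EGF gave 2 far sites. PLD5 (chr1:242763793-242764481, near a gene of the phospholipase D family) was in 6 of 6 TGFB+EGF and 0 of 8 EGF libraries, with a fold enrichment of 16.8, 5.66 and 4.40 at 24 h and 5.11, 4.24 and 11.8 at 48 h. It was also in 4 of 4 CTRL (3.99 to 5.90), 3 of 6 OSM, 1 of 6 HGF and 0 of 6 PBS libraries (difference from EGF 1.27, SE 0.187, limma adjusted p = 0.00488). The other was the satellite site in the SRGAP2C interval (chr1:124562017-124562282), whose window, shown above, has words with a median of 3366 copies. It was in 6 of 6 TGFB+EGF libraries (4.57 to 9.18), in 5 of 6 PBS, 5 of 6 OSM, 4 of 6 IFNG+EGF, 3 of 6 HGF and 1 of 8 EGF libraries and in 0 of 4 CTRL libraries (difference 1.42, SE 0.209, limma adjusted p = 0.00488). Either call was lost without any 1 of TGFB+EGF 24 h B, 24 h C, 48 h A, 48 h C, EGF 24 h C, EGF 24 h D or EGF 48 h D. Both were also lost with the replicate letter as a block and without the 8 low-yield libraries. In the latter fit, with 1 TGFB+EGF library at each time, assumed to vary like the libraries of other groups, 225 other far sites were gained and 13 lost (1.24% of far sites, against 0.952% of all sites).

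**Figure D5:**
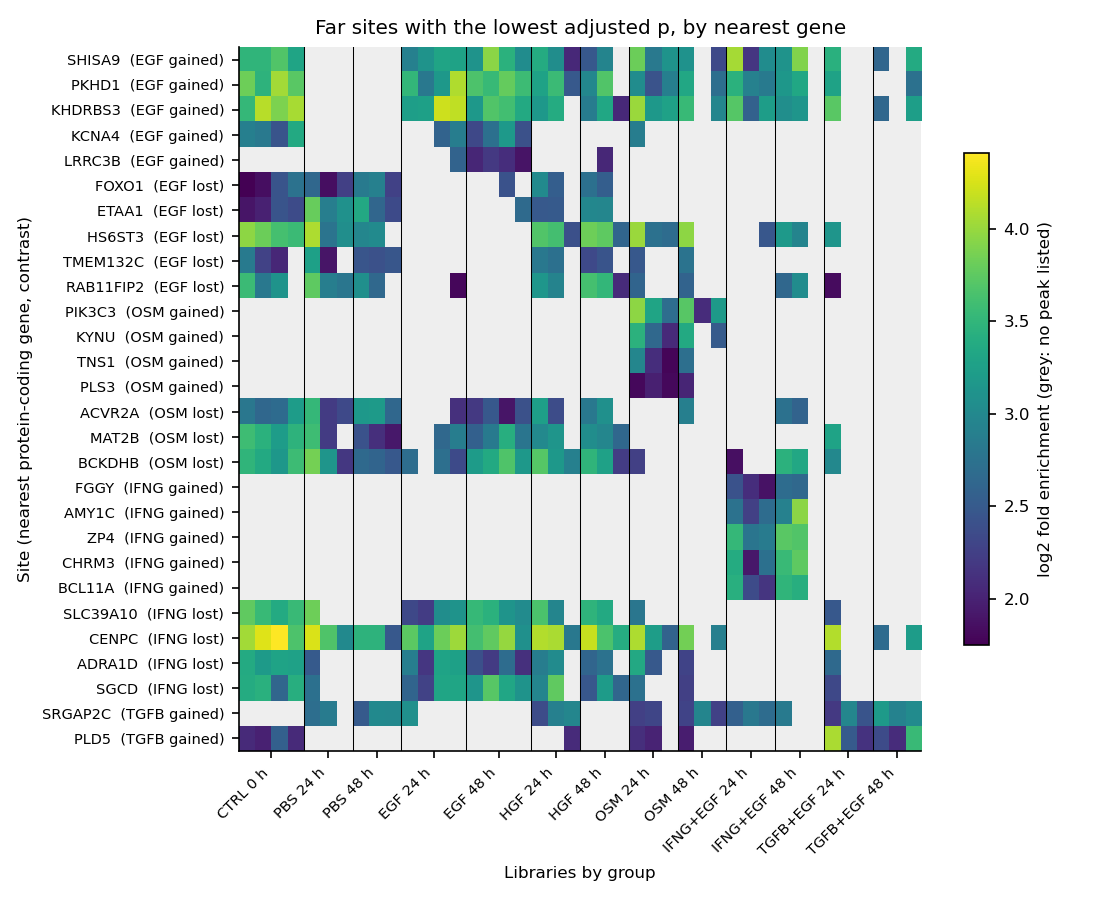
Fold enrichment (log2 scale) of 28 named far sites in each of the 42 libraries, with rows named by nearest gene and gray where the library lists no peak. The PIK3C3 row is filled in the 6 OSM libraries alone, the ZP4 and CHRM3 rows in 5 of 6 IFNG+EGF libraries, and the CENPC row is empty in the 6 IFNG+EGF libraries.

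Against CTRL, the shared reference of all 6 treatments, more far sites were lost than gained except with IFNG+EGF, but this balance depended on the settings. The far sites gained and lost were 23 and 64 for PBS (0.105% and 0.279% of all sites), 9 and 81 for EGF (0.0418% and 0.37%), 19 and 76 for HGF (0.108% and 0.369%), 25 and 60 for OSM (0.125% and 0.287%), 394 and 156 for IFNG+EGF (2% and 0.705%) and 33 and 51 for TGFB+EGF (0.0603% and 0.246%). Of the 33 gained with TGFB+EGF, 23 were repeated. As shares of far sites, these were 0.120% and 0.333% for PBS, 2.05% and 0.812% for IFNG+EGF, and 0.172% and 0.266% for TGFB+EGF, close to the background except for the TGFB+EGF gains. For TGFB+EGF the gains outnumbered the losses without the 8 low-yield libraries (171 and 20), with the limit at 500 kb (22 and 13) and with the starts of all genes (22 and 3). With the starts of all genes they also did so for PBS (10 and 5) and OSM (5 and 3). Without the yield adjustment losses outnumbered gains for IFNG+EGF (142 gained and 1550 lost). Leaving out any 1 CTRL library moved the total calls of the PBS, EGF, HGF, OSM and TGFB+EGF contrasts by over 1.5 times, to between 157 and 233. The totals also moved so far without PBS 48 h B (47 for PBS), HGF 24 h C and 48 h C (164 and 182 for HGF), TGFB+EGF 24 h A (146 for HGF and 131 for OSM), OSM 24 h A and 48 h A (55 and 54 for OSM), TGFB+EGF 48 h A and C (30 and 41 for TGFB+EGF) and IFNG+EGF 24 h A, 48 h A and 48 h B (255, 249 and 268 for IFNG+EGF). CTRL libraries also listed the most peaks (106456 to 111262 on these chromosomes), and time and treatment cannot be told apart in these contrasts.

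For the genes chosen as neighbors of gene deserts, 5 single-copy far sites were gained with OSM against PBS (MYC 3, TBX3 1, TRPS1 1). With IFNG+EGF against EGF, 5 were gained (SOX9, KLF4, GATA3, NR2F2 and TRPS1) and 4 lost (MYC, NR2F1, FOXQ1 and TGFBR2). With EGF against PBS, 1 was lost (SOX2). There were 0 calls for HGF and TGFB+EGF. Of the 539 sites, this is 0.928% gained with OSM (0.309% of all sites), 0.928% gained and 0.742% lost with IFNG+EGF (1.13% and 0.231%) and 0.186% lost with EGF (0.196%). The list was drawn up with results of these data known, so its counts are a description.

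Few changes between 24 h and 48 h were called, and how large a change these fits could have missed is not known. For the far share, the IFNG+EGF difference from EGF was 0.0676 points at 24 h and 6.20 at 48 h (exact permutation test of the change, p = 0.388, adjusted p = 0.913). Of the 5 ligand contrasts, the change from 24 h to 48 h was called at 1 far site, for OSM (against 0.00232% of all sites lost and 0.000774% gained), and at 0 for EGF, HGF, IFNG+EGF and TGFB+EGF, where 1307, 924, 1157 and 987 far sites had an unadjusted p below 0.05 in limma. Of all sites, 0.000774% were gained for EGF, 0.00155% gained for HGF, 0.00155% lost for IFNG+EGF and 0% either way for TGFB+EGF. The site, near LRATD2 (chr8:126055488-126055750), was listed in 24 h A, B and C of OSM with a fold enrichment of 6.05, 3.58 and 4.65, in 0 of 3 OSM libraries at 48 h and in no library of another group. It entered the set through the OSM 24 h libraries alone, so it is a description.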

How the data were processed

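ATAC-seq peak lists of 42 MCF10A libraries (Omni-ATAC protocol, hg38) were used. Per the study's methods, the authors trimmed reads with Trimmomatic (0.36.5), aligned them with Bowtie2 (2.3.4.1), removed secondary, unmapped, mitochondrial and duplicate reads (Picard) and called peaks per library with MACS2 (2.1.1.20160309.5, q of 0.01). A mapping-quality filter is not given in the sources used here. In the deposited lists the authors' peak caller gives a fold enrichment (pileup over local background), a -log10 p and -log10 q value and an integer score for each summit. Fold enrichment served as the measure of height, the -log10 q values as a stricter filter and the deposited score was not used for any result. Read counts were not used, so depth is unknown.

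Distances were taken to 78281 protein-coding starts (GENCODE release 44). Shares were compared by exact permutation, two-sided, with Benjamini-Hochberg adjustment over 11 contrasts. Libraries were permuted within time against the matched medium, and with both times together against CTRL. Tests over all 42 libraries used 100000 permutations, and repeats that left out a library used 2000. Detection was fitted with limma (3.58.1, R 4.3.3) in 1 fit over 13 groups with 29 residual degrees of freedom, and was tested on simulated data first. Widths came from unique regions and heights from summits. Other tools were Python 3.11.15, numpy 2.4.6, pandas 2.3.3, scipy 1.17.1, numba 0.67.0 and matplotlib 3.10.9. Motifs were searched on both strands: AP-1 TGANTCA, TEAD ACATTCC, RUNX TGTGGT, GRHL AACNNGTT, C/EBP TTGCNNAA, ETS CCGGAAG, SP/KLF GGGCGG, STAT TTCNNNGAA, forkhead TGTTTAC, and CTCF, p53/p63, NF1, glucocorticoid receptor, IRF and CENP-B consensus words. STAT and IRF words can overlap others. The share of soft-masked bases was planned but could not be computed, since the reference is in upper case.

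The members, the gene lists and the tests were chosen with earlier results of these data known. Sites were named by the nearest protein-coding gene: the 5 gained and 5 lost with the lowest adjusted p per matched-medium contrast, the 10 in most libraries and the 5 farthest in at least 21 libraries. The splits by copy number and by CENP-B interval, and the single-copy sites named from them, were chosen after seeing the data. Alternatives changed the distance, the gene set, the peak filter, the libraries, the lane and the block. The sequence and position of 1 named site are not reported here.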

Additional observations from a re-analysis of the deposited data

Results flagged for a closer look

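Repeated far sites took 1.11% of the peaks of CTRL replicate D, against 1.36%, 1.39% and 1.39% in the other 3 CTRL libraries. The gap to the nearest library was 0.863 of the range of the group, over Dixon's critical value of 0.829 for 4 libraries. Chance marks about 1 in 20 such groups, and 15 groups and measures were examined.

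The change from 24 h to 48 h under OSM relative to PBS was called at 1 far site, the LRATD2 site, by the interaction term of the limma fit. It was listed in 3 of 3 OSM libraries at 24 h and in 0 of 3 at 48 h. As it was listed in no other library, it entered the set through the 24 h libraries alone.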

How the results depend on the processing

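Far-share differences are in points and calls in percent of far sites. For each value that changed its direction or its side of the threshold, the cause was not tested. With the limit at 100 kb, the share differences were -1.10 (PBS against CTRL) and 0.0378 (EGF against PBS), and 0.00615% were called for TGFB+EGF against EGF. At 500 kb they were 0.242 (EGF) and 0.619 (HGF) against CTRL and 13.1 for TGFB+EGF against EGF (adjusted p = 0.054, exact permutation test), the log2 enrichment difference was -0.0118, and calls against CTRL were 0.2999% (EGF) and 0.324% (HGF). With starts of all genes they were 0.461 (EGF) and 0.825 (HGF) against CTRL and 11.1 for TGFB+EGF against EGF (adjusted p = 0.063, exact permutation test). Calls were then 0.179% (EGF), 0.239% (HGF and OSM), 1.28% (IFNG+EGF) and 0.746% (TGFB+EGF) against CTRL, 0.119% (EGF and OSM against PBS), 0.477% (IFNG+EGF against EGF) and 0.0298% (TGFB+EGF against EGF). On the strongest 4000 peaks, the differences from CTRL were 0.5 (EGF) and 1.225 (HGF). Without the 8 low-yield libraries, they were -0.123 (PBS) and -1.08 (IFNG+EGF) against CTRL, and -0.632 (IFNG+EGF) and 1.05 (TGFB+EGF) against EGF, and the log2 enrichment difference was -0.000202. Calls were then 0.245% (EGF), 0.219% (HGF) and 0.994% (TGFB+EGF) against CTRL, 0.547% (EGF), 0.0937% (HGF) and 1.09% (OSM) against PBS, and 2.88% (IFNG+EGF) and 1.24% (TGFB+EGF) against EGF. With lane means removed, PBS differed from CTRL by -0.662. With lane as a term, calls were 0.271% (PBS), 1.44% (IFNG+EGF) and 0.219% (TGFB+EGF) against CTRL, 0.120% (EGF) and 0.156% (OSM) against PBS and 0.00521% (TGFB+EGF against EGF).

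Single-copy sites alone gave -2.59 (PBS), -1.70 (OSM), -3.04 (IFNG+EGF) and -2.32 (TGFB+EGF) against CTRL, 1.51 (EGF) and 1.19 (HGF) against PBS, -1.96 (IFNG+EGF) and -1.24 (TGFB+EGF) against EGF, r = 0.858 with peak number and 0.00662% called for TGFB+EGF against EGF. Without CENP-B intervals the differences were -2.52 (PBS), -1.07 (EGF, adjusted p = 0.037, exact permutation test), -1.51 (OSM), -2.76 (IFNG+EGF) and -1.68 (TGFB+EGF) against CTRL, 1.44 (EGF) and 1.15 (HGF) against PBS, and -1.69 (IFNG+EGF) and -0.611 (TGFB+EGF) against EGF. Both divisions were chosen after seeing the data. Sites in at least 21 libraries gave a width difference of -0.298 bp, and a -log10 q of at least 4 gave 0.775% called for HGF against CTRL. Without the yield adjustment calls were 6.55% (PBS), 2.92% (EGF), 2.51% (HGF), 4.50% (OSM), 8.81% (IFNG+EGF) and 7.06% (TGFB+EGF) against CTRL, 0.00521% (HGF) and 0.0573% (OSM) against PBS and 1.73% for TGFB+EGF against EGF.

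The letters were not treated as pairing the libraries, since pairing was taken to need a correlation over 0.1 in every same-letter pair and 9 of 30 had one (11 of 78 others). The correlation of deviations had a median of 0.0281 over 30 same-letter pairs (-0.167 to 0.282) and of -0.0131 over 78 others, and 15 of 30 libraries correlated best with their own letter. With the replicate letter as a block, the TGFB+EGF share difference from EGF was 12.9 (adjusted p = 0.344, exact sign-flip test over same-letter pairs, at its smallest possible p). Calls were then 0.271% (TGFB+EGF against CTRL), 0.156% (EGF against PBS), 0.229% (OSM against PBS) and 0% (TGFB+EGF against EGF).

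Leaving out each library in turn gave shares against CTRL of -0.123 to 1.13 (PBS, lowest without PBS 48 h C), -0.720 to -0.342 (EGF, lowest without EGF 24 h B), -0.372 to -0.161 (HGF), 0.772 to 2.97 (OSM), -0.597 to 3.61 (IFNG+EGF) and 9.08 to 14.9 (TGFB+EGF), against PBS of -1.83 to -0.261 (EGF), -1.65 to -0.0794 (HGF) and -0.0338 to 2.71 (OSM, lowest without OSM 48 h B), and against EGF of -0.308 to 4.95 (IFNG+EGF) and 8.54 to 16.1 (TGFB+EGF). Both IFNG+EGF minima came without IFNG+EGF 48 h C. The r was -0.903 to -0.876, the width difference -8.10 to -6.78 bp and the log2 enrichment difference 0.0237 to 0.0332. Calls were 0.245% to 1.09% (PBS), 0.411% to 1.21% (EGF), 0.364% to 1.18% (HGF), 0.281% to 1.06% (OSM), 1.30% to 4.13% (IFNG+EGF) and 0.156% to 0.994% (TGFB+EGF) against CTRL, 0.0573% to 1.36% (EGF), 0% to 0.0885% (HGF) and 0.0521% to 1.38% (OSM) against PBS, and 0.849% to 3.46% (IFNG+EGF) and 0% to 0.146% (TGFB+EGF) against EGF. Peak lists without read counts limit what low-yield libraries can show.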
